A study of Mus musculus with 90 samples.

Results

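The genes described here are 7 genes of the myelin sheath, Mbp, Mog, Mag, Mobp, Cnp, Mal and Cldn11. They were chosen by name, with a rule that uses no measured value, although earlier results of these data were known: the rows of the count table whose mouse Ensembl identifier maps to these symbols, 7 of 37991 genes, all of which passed the filter on low counts in each region. Oligodendrocytes are the glial cells that wrap axons of the brain in myelin, a stack of lipid-rich membrane that speeds conduction of the nerve impulse. Mature oligodendrocytes make the proteins of this sheath together with the lipids between them, and the genes for both are switched on late in the development of the cell by factors such as Sox10, Olig2 and Myrf.

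Residents were male C57BL/6J mice that had lived with a female of their strain, which was taken out 3 h before the test. A resident met an unfamiliar BALB/c male behind wire mesh for 5 min (intruder libraries), or the same mesh cage holding a paper cup (control libraries), and the amygdala, frontal cortex and hypothalamus were dissected 30, 60 or 120 min later. These 3 regions, 3 times and 2 conditions make 18 groups with 90 libraries in all. Each group has 5 libraries, except for 3 hypothalamus control libraries at 30 min and 6 in each frontal cortex group at 120 min. Libraries with the same time, condition and replicate number were taken as the same animal, which gives 32 animals. The labels name no genetic change in any animal and state cervical dislocation for all. Replicates are separate animals by the labels, although the design text also speaks of RNA samples pooled to generate libraries without saying how. Poly(A) RNA was sequenced, and reads were counted per gene. Values are given as CPM, counts per 1 M gene reads after scaling of the libraries by trimmed mean of M-values, and a log2 fold change of 1 is a doubling.

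Library depth was 38.6 to 58.9 M gene reads, with a median of 49.0 M. The myelin genes were far above the counting limit, from 964 to 4668 reads per library for Mog and from 37309 to 193980 for Mbp. The column headers carry a tag, ISO on all 28 libraries of 30 min and CERV on all 62 libraries of 60 and 120 min, whose meaning the labels do not state. A difference between 30 min and the later times therefore cannot be told apart from a difference between the tags. Of 8 listed markers of Schwann cells, which make myelin in peripheral nerve, some were near 0 and others were not: Pmp2 did not exceed 0.37 CPM and Prx did not exceed 0.87 CPM in any library, but Drp2 was at 60.3 to 141 CPM, Pmp22 at 12.3 to 28.8 CPM and Egr2 at 0.37 to 64.0 CPM. The list summed to 87.2 to 217 CPM per library, and the oligodendrocyte factor Sox10 was at 20.3 CPM or more in every library.

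The start regions of the genes are shown because the 7 genes rose and fell together across libraries, as described below. RefSeq windows of 300 bases (250 before and 50 after an annotated start, build GRCm38.p6) were found for 6 of the 7 genes, with none for Mbp. The deposited counts were made on another build, NCBIM37 in the submitters' processing notes, so no coordinate comes from the count table. Both strands were searched for CTGGCAC, a form of the sequence bound by Myrf, the factor that turns on myelin genes, for ACAAAG and ACAATG, the cores bound by Sox proteins such as Sox10, for the E-box CAGCTG and for the TATA box TATAAA. For each of the 3 genes with a match, 1 window is printed 5′ to 3′ on the strand of the gene, with the matches in capitals (CTTTGT is ACAAAG read on the opposite strand).
Mobp, chr9:120149492-120149791, plus strand: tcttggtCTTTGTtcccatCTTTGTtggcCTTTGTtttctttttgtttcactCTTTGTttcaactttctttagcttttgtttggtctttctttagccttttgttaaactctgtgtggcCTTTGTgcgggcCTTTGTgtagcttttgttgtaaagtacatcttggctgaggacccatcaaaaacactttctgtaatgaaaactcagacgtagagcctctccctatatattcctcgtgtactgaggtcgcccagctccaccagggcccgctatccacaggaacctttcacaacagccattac
Cnp, chr11:100574689-100574988, plus strand: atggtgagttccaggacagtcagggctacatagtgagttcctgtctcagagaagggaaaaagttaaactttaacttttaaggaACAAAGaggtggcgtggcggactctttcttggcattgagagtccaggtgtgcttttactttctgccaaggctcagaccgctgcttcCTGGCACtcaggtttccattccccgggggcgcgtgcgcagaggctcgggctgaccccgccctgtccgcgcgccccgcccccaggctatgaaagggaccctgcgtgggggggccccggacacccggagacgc
Mag, chr7:30914814-30915113, minus strand: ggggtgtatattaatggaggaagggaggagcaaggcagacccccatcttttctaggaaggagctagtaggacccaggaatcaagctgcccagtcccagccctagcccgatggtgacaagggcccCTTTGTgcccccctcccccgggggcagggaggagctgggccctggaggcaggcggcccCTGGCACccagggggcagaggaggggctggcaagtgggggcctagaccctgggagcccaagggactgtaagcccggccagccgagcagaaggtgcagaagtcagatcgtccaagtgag

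The Mobp window held ACAAAG 6 times, each on the opposite strand and between 120 and 243 bases before the start. The Cnp window held CTGGCAC 81 bases and ACAAAG 167 bases before the start. The printed Mag window, 1 of 3 annotated for this gene (a second, shifted by some bases, holds the same matches, and the third holds none of the 5 motifs), held CTGGCAC 68 bases before the start and ACAAAG on the opposite strand 126 bases before it. None of the 5 motifs was found in the windows of Mal, Cldn11 and Mog, which says only that these letters are not in these 300 bases. Of 32851 windows of the same length, 5.01% held CTGGCAC, 18.7% ACAAAG, 12.6% ACAATG, 16.3% CAGCTG and 13.6% TATAAA. A match is a description of the letters and shows neither binding nor regulation.

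Mbp (ENSMUSG00000041607), the myelin basic protein that holds the cytoplasmic faces of the membrane together, was the highest of the 7 in every region, with a median of 1645 CPM in amygdala (798.5 to 2839.9, n = 30). Its median was 2059 CPM in frontal cortex (1071 to 3103, n = 32) and 2686 CPM in hypothalamus (2091 to 3497, n = 28). Mobp (ENSMUSG00000032517), a small basic protein of compact myelin, had medians of 567.9, 648 and 1001 CPM in amygdala, frontal cortex and hypothalamus. Mal (ENSMUSG00000027375), a membrane protein of myelin lipid rafts, had medians of 206, 208 and 315 CPM. For these 3 genes the hypothalamus had the highest median and the amygdala the widest range of libraries by ratio of highest to lowest.

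The genes of non-compact and outer myelin were likewise highest in hypothalamus. Cnp (ENSMUSG00000006782), a phosphodiesterase that keeps cytoplasmic channels of the sheath open, had medians of 265 CPM in both amygdala and frontal cortex and 395 CPM in hypothalamus. Mag (ENSMUSG00000036634), an adhesion protein on the innermost wrap that faces the axon, had medians of 126, 131 and 198 CPM in amygdala, frontal cortex and hypothalamus. Cldn11 (ENSMUSG00000037625), the claudin of the tight junctions that seal the wraps, had medians of 122, 130 and 183 CPM, and Mog (ENSMUSG00000076439), an immunoglobulin-like protein on the outer face of the sheath, had 44.2, 49.3 and 71.9 CPM. The 7 genes together took 0.142% to 0.658% of the gene reads of a library, and Mbp alone made up 50.7% to 60.6% of their sum.

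Levels of different genes can be compared only per length of transcript. With CPM divided by the length of all annotated exons in kilobases, the order in each region was Mbp, Mobp, Mal, Cnp, Cldn11, Mag and Mog. In hypothalamus the medians on this scale were 317 CPM per kb for Mbp, 146 for Mobp, 114 for Mal, 109 for Cnp, 97.7 for Cldn11, 48.6 for Mag and 42.2 for Mog. Mal and Cnp overlapped widely across libraries, from 86.9 to 147 and from 87.4 to 131 CPM per kb, and with the length of the longest transcript instead Cnp stood above Mal in each region.

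**Figure D1:**
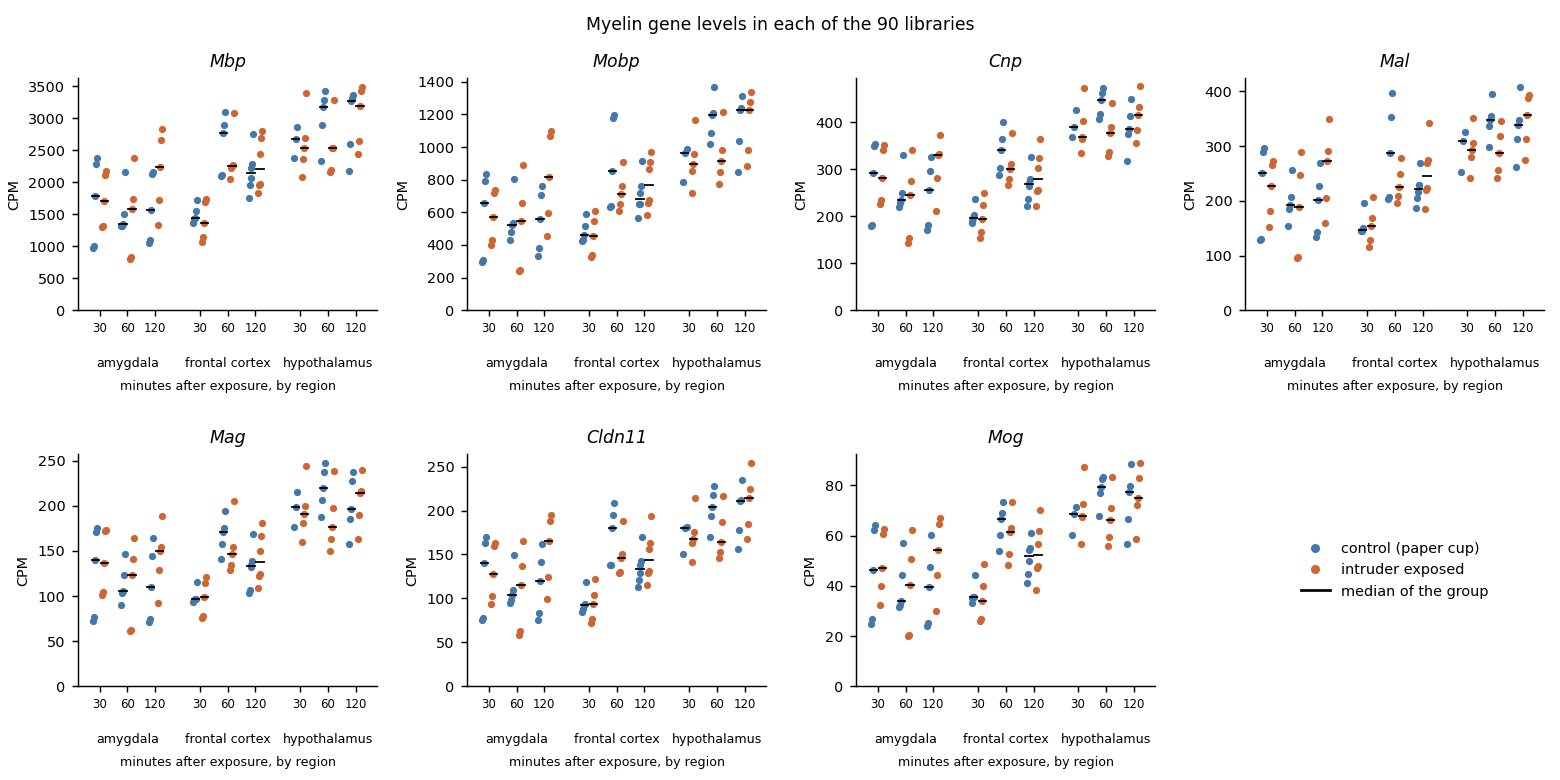
CPM (vertical axis, from 0) of each of the 7 myelin genes in all 90 libraries, by region and minutes after exposure; blue points are control libraries, orange points intruder libraries and black bars group medians. In frontal cortex the 30 min libraries of Mbp lie between 1071 and 1735 CPM and the 60 min libraries between 2055 and 3103 CPM.

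All 7 myelin genes were higher in hypothalamus than in either other region. In bulk tissue more oligodendrocytes in a piece and more RNA per oligodendrocyte cannot be told apart. The fits over regions treated libraries of the same animal as independent, with the animal as a block in an alternative. With the times averaged, hypothalamus exceeded frontal cortex for 7 of 7 genes in control libraries, by 0.49 to 0.66 on the log2 scale, where 42.4% of 18337 genes tested were called higher at a Benjamini-Hochberg adjusted p below 0.05 in edgeR's quasi-likelihood test. In intruder libraries 7 of 7 were higher by 0.47 to 0.64 (42.7% of genes called higher). Against amygdala, the hypothalamus was higher for 7 of 7 genes by 0.66 to 0.92 in control libraries (35.5% of genes called higher) and for 7 of 7 by 0.49 to 0.67 in intruder libraries (36.1%). Mobp differed most from amygdala in controls, 1.89-fold (log2 0.92 ± 0.15 SE, adjusted p = 1.4e-07), and Mag most from frontal cortex, 1.58-fold (0.66 ± 0.13 SE, adjusted p = 2e-06). Libraries of the regions still overlapped: the lowest hypothalamus library of Mbp (2091 CPM) was below the highest of amygdala (2839.9 CPM) and of frontal cortex (3103 CPM).

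Between amygdala and frontal cortex a single myelin gene passed the test. In control libraries Mbp was lower in amygdala (log2 fold change -0.34 ± 0.12 SE, adjusted p = 0.013), the only 1 of 7 genes called, against 67.6% of genes called in either direction. In intruder libraries 0 of 7 were called by edgeR, 0 had an unadjusted p below 0.05, and 67% of genes were called. The 95% intervals ran from -0.58 to 0.17 in controls and from -0.40 to 0.32 in intruder libraries over the 7 genes. The Mbp call was lost in edgeR without the animals numbered 2 or 3, where 0 of 7 genes were called, and 3 of 7 were called with limma voom and with the animal as a block, and without the animals numbered 6.

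Most other oligodendrocyte genes were also higher in hypothalamus. Of 29 other oligodendrocyte markers tested, 25 were higher and 1 lower in hypothalamus than in frontal cortex of control libraries (median log2 fold change 0.70, against 0.02 over all genes), and 27 were higher and 0 lower than in amygdala (median 0.74, against -0.01 over all genes). Of 8 enzymes that make or modify myelin lipids, 7 were higher and 0 lower in each of these 2 comparisons, with medians of 0.48 and 0.54. Of 10 transcription factors of the lineage, 9 were higher and 1 lower than in frontal cortex. Of 9 markers of oligodendrocyte precursors, the dividing cells from which oligodendrocytes arise, 7 were higher and 0 lower than in frontal cortex, and 2 were higher and 3 lower than in amygdala. Over all 18337 genes in controls 7766 were called higher and 7253 lower than in frontal cortex, and 6510 higher and 6752 lower than in amygdala. Markers of other cell types moved as well: in controls 7 of 11 neuronal markers were lower and 2 higher in hypothalamus than in frontal cortex, 9 of 9 microglia and 8 of 8 endothelial markers were lower, and of 9 astrocyte markers 5 were higher and 2 lower. The summed neuronal markers ran from 8019 to 9967 CPM in frontal cortex controls, from 5567 to 7254 in amygdala and from 3546 to 5087 in hypothalamus, and the summed microglia markers from 429 to 515, from 371 to 498 and from 254 to 334 CPM. The part of these differences in the higher myelin genes was not tested.

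None of the 7 genes passed the threshold between intruder and control libraries in any region at any time. With edgeR, 0 of 7 were called in each of the 9 comparisons of intruder with control. The share of all genes called was 0% at 30 min, 0% at 60 min and 0.538% at 120 min in amygdala, 0% at each of the 3 times in frontal cortex, and 0%, 0% and 0.192% in hypothalamus. At an unadjusted p below 0.05, 3 of 7 genes passed in hypothalamus at 60 min and 0 of 7 in each of the other 8 comparisons. DESeq2 and limma voom also called 0 of 7 in all 9.

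The amygdala at 120 min had the largest estimates. Mbp in its control libraries was at 2133, 1053, 1103, 1567 and 2156 CPM. Mbp in its intruder libraries was at 1327, 1729.5, 2657, 2839.9 and 2233 CPM. In all, 3 intruder libraries stood above all controls, but the lowest intruder library lay among the controls, so the groups overlapped. The log2 fold change of Mbp was 0.43 ± 0.30 SE, with a 95% interval from -0.18 to 1.04 and an adjusted p of 0.49. Mobp was at 707, 332, 378, 562 and 762 CPM in controls and at 454, 596, 1067, 1098 and 819 CPM in intruder libraries, a log2 fold change of 0.56 ± 0.35 SE (95% interval -0.15 to 1.27, adjusted p = 0.44). All 7 estimates were positive, from 0.31 for Cnp to 0.56 for Mobp, while the median over all genes was 0.00. In the same comparison the 29 other oligodendrocyte markers had a median of 0.35 with 0 called, and the 8 markers of striatum, a region beside the amygdala, had a median of 0.61 with 0 called; the summed CPM of the striatal list ran from 336 to 1472 in controls and from 479 to 1600 in intruder libraries. Its part in the estimates of the myelin genes was not tested.

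In hypothalamus at 60 min all 7 estimates were negative, from -0.32 to -0.23, with a median over all genes of 0.00. Cnp, with the smallest unadjusted p, was at 407, 418, 473, 462 and 447 CPM in control libraries. Cnp was at 389, 328, 335, 441 and 377 CPM in intruder libraries. A single intruder library lay inside the range of the controls and the other 4 lay below it. The log2 fold change of Cnp was -0.25 ± 0.10 SE (unadjusted p = 0.015, adjusted p = 1.00 with edgeR). Mobp had -0.32 ± 0.14 SE (unadjusted p = 0.027) and Mal had -0.27 ± 0.12 SE (unadjusted p = 0.036), with the same adjusted p of 1.00, where 393 of 17676 genes had an unadjusted p below 0.05.

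In the other comparisons of intruder with control no myelin gene had an unadjusted p below 0.05. The 7 log2 fold changes ran from -0.01 to 0.11 at 30 min and from -0.12 to -0.03 at 60 min in amygdala. Those of frontal cortex ran from -0.10 to -0.02 at 30 min, from -0.32 to -0.11 at 60 min and from 0.07 to 0.18 at 120 min. Those of hypothalamus ran from -0.02 to 0.08 at 30 min and from 0.01 to 0.09 at 120 min. The intervals were widest in amygdala, where they reached from -0.72 to 0.77 at 30 min, and narrowest in hypothalamus at 120 min, from -0.27 to 0.33 over the 7 genes.

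Averaged over the 3 times, intruder against control gave 0 of 7 calls with edgeR in amygdala, frontal cortex and hypothalamus, 0 of 7 at an unadjusted p below 0.05, and 0% of all genes called in each region. Whether the intruder effect differed between times was called for 0 of 7 genes in each region, with 0%, 0% and 0.0113% of all genes called in amygdala, frontal cortex and hypothalamus. Whether it differed between regions was called for 0 of 7 at 30, 60 and 120 min, with 0% of genes called at each time. None of these 6 tests gave a myelin gene an unadjusted p below 0.05.

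**Figure D2:**
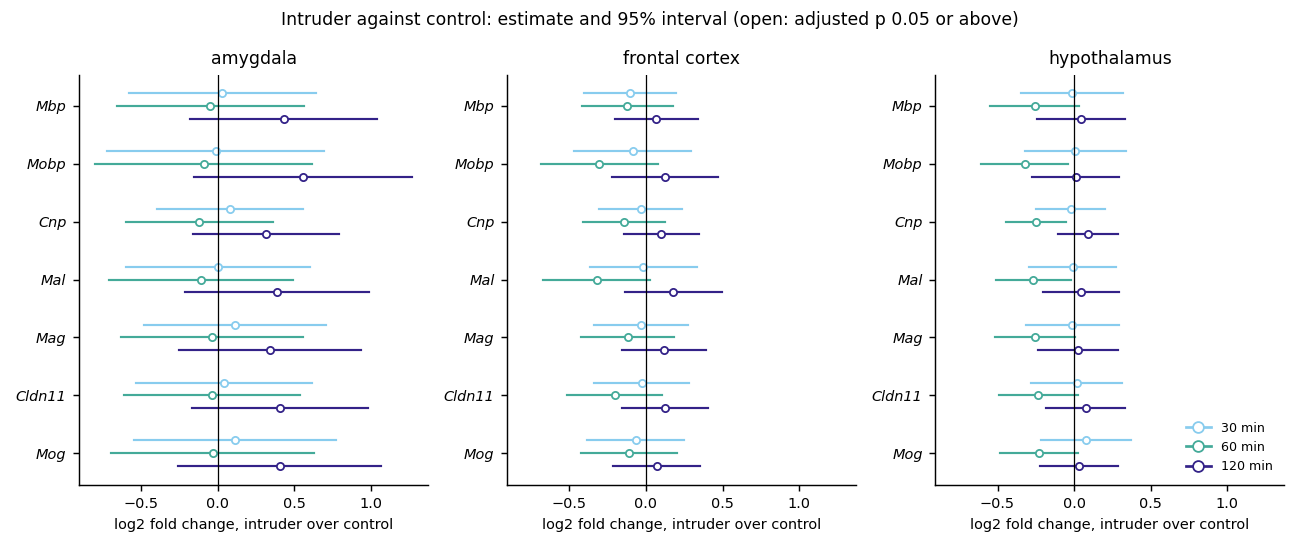
Log2 fold change of intruder over control (horizontal axis) for each of the 7 myelin genes by region; points are edgeR estimates and lines 95% intervals, with light blue for 30 min, green for 60 min and dark blue for 120 min. All points are open (adjusted p of 0.05 or above), and the highest upper bound is 1.27, for Mobp in amygdala at 120 min.

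In frontal cortex all 7 myelin genes were higher at 60 min than at 30 min, in control and in intruder libraries alike. Mbp at 30 min was at 1443, 1419.6, 1729, 1362 and 1558 CPM in controls and at 1367, 1689, 1071, 1139 and 1735 CPM in intruder libraries. At 60 min it was at 2116, 2895, 3103, 2094 and 2772 CPM in controls and at 2260.1, 2055, 2276, 3089.5 and 2232 CPM in intruder libraries. At 60 min every library of both conditions lay above every library of 30 min. The log2 fold change of Mbp was 0.77 ± 0.15 SE in controls (1.71-fold, 95% interval 0.47 to 1.08, adjusted p = 0.00025) and 0.76 ± 0.15 SE in intruder libraries (1.69-fold, 95% interval 0.45 to 1.06, adjusted p = 0.00013).

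The other 6 genes rose as well. Mog was at 35.3, 35.5, 44.4, 33.0 and 35.6 CPM in the controls of 30 min and at 60.3, 69.0, 73.5, 54.1 and 66.6 CPM in those of 60 min, groups that did not overlap. Over the 7 genes the rise in controls was 1.66-fold for Cnp to 1.84-fold for Mobp (adjusted p from 0.00016 to 0.00067), and 17.2% of 17091 genes were called higher (2947 higher and 3099 lower). In intruder libraries it was 1.48-fold for Mal to 1.69-fold for Mog (adjusted p from 0.00013 to 0.0074), and 22.3% of genes were called higher (3807 higher and 3973 lower). The 7 of 7 stand against a background in which 33.4% of all genes in controls and 46.1% in intruder libraries differed between the times in either direction, a test in which 7 of 7 myelin genes were called in both conditions. Leaving out any 1 library kept 7 of 7 genes called at 60 against 30 min in both conditions.

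At 120 min fewer calls were made in controls than in intruder libraries. Mbp in controls ran from 1749 to 2756 CPM with a median of 2140 (n = 6). In intruder libraries it ran from 1836 to 2805 CPM with a median of 2206 (n = 6). All 12 libraries lay above the highest library of 30 min, and they overlapped with the libraries of 60 min. Against 30 min, 7 of 7 genes were called higher in intruder libraries, 1.44-fold for Cnp to 1.69-fold for Mobp (adjusted p from 0.002 to 0.011), where 9.02% of genes were called higher. In controls 2 of 7 were called higher, Mbp (log2 0.52 ± 0.14 SE, adjusted p = 0.032) and Cldn11 (0.50 ± 0.15 SE, adjusted p = 0.047), where 1.94% of genes were called higher. The other 5 genes in controls had estimates from 0.38 to 0.55, each with an unadjusted p below 0.05 and an adjusted p from 0.068 to 0.12. A difference between the conditions in these changes was not called for any of the 7 genes, as given above for the intruder effect between times.

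The 2 calls in controls depended on single libraries. Without the 30 min control replicate 1, 2, 4 or 5, or without the 120 min control replicate 1, 3, 4 or 6, the count fell to 0 of 7. It was 4 of 7 without the 120 min control replicate 2, and 0 of 7 with the replicate number as a block. From 60 to 120 min 0 of 7 were called by edgeR in controls, where estimates ran from -0.38 to -0.25, 5 of 7 had an unadjusted p below 0.05 (as did 5494 of 17091 genes), DESeq2 called 1, and 15.9% of genes were called. Without the 120 min control replicate 1, 3 of 7 were called lower. In intruder libraries the same comparison gave 0 of 7 calls with estimates from -0.16 to 0.12, 0 of 7 at an unadjusted p below 0.05, and 22.9% of genes called. Libraries of 60 and 120 min share the header tag, so this last step is not confounded with it. Within each condition, however, the frontal cortex libraries of 60 and 120 min share no library index, the first barcode sequence in the column header. A difference between indexes is not separated from this step in these tests.

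**Figure D3:**
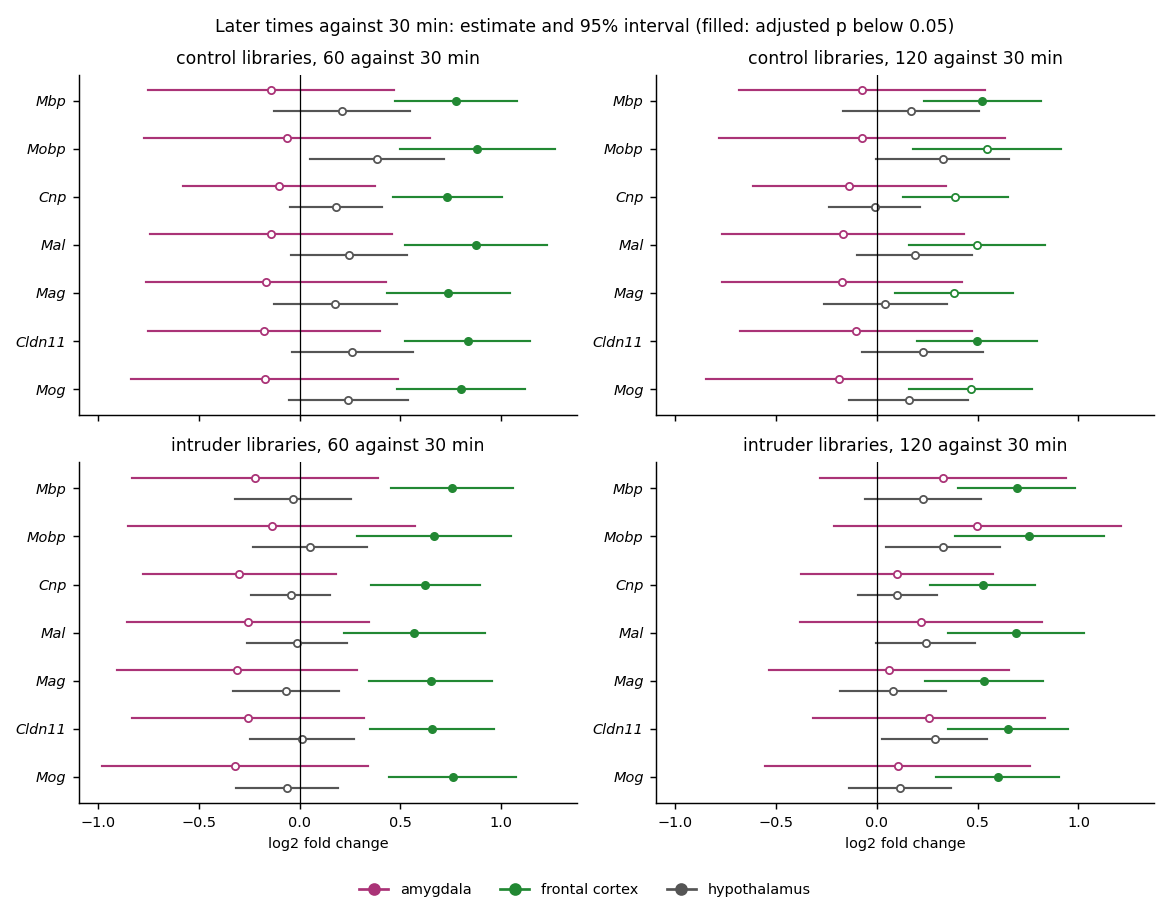
Log2 fold change of 60 or 120 min over 30 min (horizontal axis) for each of the 7 myelin genes in control libraries (top) and intruder libraries (bottom); points are edgeR estimates, lines 95% intervals, purple amygdala, green frontal cortex and grey hypothalamus. Filled points (adjusted p below 0.05) occur in frontal cortex alone, for 7 of 7 genes at 60 min in both conditions.

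Other genes of the oligodendrocyte moved in the same direction in frontal cortex. Of 29 further oligodendrocyte markers, 27 rose and 0 fell from 30 to 60 min in controls, with a median log2 fold change of 0.60 against 0.00 over all genes, of which 17.2% were called higher. In intruder libraries 21 rose and 0 fell, with a median of 0.44 (22.3% of all genes called higher). Trf, the iron carrier transferrin, which oligodendrocytes make, rose by 1.01 ± 0.19 SE in controls (adjusted p = 0.00022), Opalin, a membrane protein of the paranodal loops, by 0.86 ± 0.15 SE (adjusted p = 0.00013) and Pllp, the myelin protein plasmolipin, by 0.62 ± 0.11 SE (adjusted p = 0.00011). At 120 against 30 min 0 of the 29 were called in controls (median 0.33, 1.94% of all genes called higher) and 14 rose in intruder libraries (median 0.35, 9.02% of all genes).

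The lipid and regulatory genes of the lineage are read against 17.2% of all genes called higher in controls and 22.3% in intruder libraries. Of 8 enzymes of myelin lipids, 7 rose and 0 fell in controls and 5 rose and 0 fell in intruder libraries. Fa2h, which adds the hydroxyl group to the fatty acids of myelin galactolipids, rose by 0.74 ± 0.15 SE in controls (adjusted p = 0.00048), and Cers2, the ceramide synthase for very long acyl chains, by 0.46 ± 0.08 SE (adjusted p = 0.00016). Of 10 transcription factors, 5 rose and 1 fell in each condition. Myrf rose by 0.71 ± 0.13 SE in controls (adjusted p = 0.00015) and by 0.62 ± 0.13 SE in intruder libraries (adjusted p = 0.00024), and Olig1 rose by 0.50 ± 0.09 SE in each. Zfp488, a zinc finger factor of the lineage, fell by 0.41 on the log2 scale in intruder libraries (adjusted p = 0.00037). Of 19 genes of cholesterol synthesis, which all cells use, 6 rose and 1 fell in controls and 9 rose and 3 fell in intruder libraries, with medians of 0.08 and 0.11.

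Markers of earlier stages of the lineage are given beside the 2947 genes called higher and 3099 called lower of 17091 in controls, and 3807 and 3973 in intruder libraries. Of 9 precursor markers, 1 rose and 2 fell in controls (median 0.01), and 2 rose and 4 fell in intruder libraries (median -0.22). Pdgfra, the growth factor receptor that marks precursors, fell by 0.44 on the log2 scale in intruder libraries (adjusted p = 0.00014), and Tnr, the matrix protein tenascin-R, fell by 0.97 in controls (adjusted p = 0.0015). Of 7 markers of newly formed oligodendrocytes, 2 rose and 1 fell in controls and 1 rose and 2 fell in intruder libraries; Bcas1 rose by 0.58 ± 0.14 SE and 0.56 ± 0.14 SE in the 2 conditions. Of 10 genes of the junctions between axon and glia, 0 rose and 4 fell in controls and 0 rose and 5 fell in intruder libraries, among them Nrcam, a neuronal adhesion protein of the node, which fell by 0.31 and 0.43.

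Other measures of the libraries are given beside this step in frontal cortex. Reads outside annotated genes were a median 11.3% in controls and 12.1% in intruder libraries at 30 min (10.99% to 13.19% over all 10), and 9.25% and 8.998% at 60 min (8.63% to 10.29% over all 10). At 120 min the medians were 9.98% and 10.1%. The 8 markers of striatum, which lies beneath the frontal cortex, had a median log2 fold change of 0.90 in controls and 0.71 in intruder libraries with 0 of 8 called, and their summed CPM ran from 161 to 968 at 30 min and from 255 to 1390 at 60 min. Of 9 astrocyte markers 0 rose and 4 fell in controls and 2 rose and 3 fell in intruder libraries, and of 9 microglia markers 3 rose and 0 fell, and 5 rose and 0 fell; over all genes more were called lower than higher in both conditions, as given above. Their part in the rise of the myelin genes was not tested.

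No myelin gene passed between times in the other regions. With edgeR 0 of 7 genes were called between times in amygdala controls (0.232% of genes called) and intruder libraries (12.9%), and 0 of 7 in hypothalamus controls (0.181%) and intruder libraries (1.49%). At an unadjusted p below 0.05 these tests passed 0, 0, 0 and 2 of the 7 genes, and 0 of 7 were called by DESeq2 and by limma voom. From 30 to 60 min the estimates in amygdala ran from -0.18 to -0.06 in controls and from -0.32 to -0.14 in intruder libraries, and in hypothalamus from 0.18 to 0.38 and from -0.07 to 0.05. From 60 to 120 min in amygdala intruder libraries they ran from 0.37 to 0.64.

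A test of the change between regions, added after these values were seen, compared the 3 regions in 1 fit. Libraries of the same animal were treated as independent in it. In controls the change from 30 to 60 min differed between regions for 3 of 7 genes, Cnp, Mal and Cldn11 (adjusted p = 0.019, 0.027 and 0.020), where 22.7% of genes were called. In intruder libraries it differed for 5 of 7, Mbp, Mog, Mag, Cnp and Cldn11 (adjusted p from 0.0031 to 0.021), where 37.4% of genes were called. The count in controls fell to 0 of 7 without the animals numbered 1, 3 or 5, and that in intruder libraries to 0 without those numbered 4 and to 1 without those numbered 3. From 30 to 120 min it differed for 0 of 7 genes in controls (1.51% of genes called, 277 genes, or 624 with the animal as a block) and 0 of 7 in intruder libraries (17.5%), with 0 of 7 at an unadjusted p below 0.05 in both.

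The 7 genes rose and fell together from library to library within groups. After subtraction of each group's mean log2 CPM, the 21 pairs of genes had a Pearson r of 0.964 to 0.993 in amygdala (n = 30), 0.872 to 0.981 in frontal cortex (n = 32) and 0.845 to 0.968 in hypothalamus (n = 28), with Spearman rho of 0.952 to 0.991, 0.878 to 0.979 and 0.828 to 0.962. Each of the 63 permutation p-values was 1e-05, the smallest that 100000 resamples can give, also after Benjamini-Hochberg adjustment. Without the 2 libraries farthest from the median of the first gene of the pair, r was 0.956 to 0.992, 0.869 to 0.975 and 0.864 to 0.961. Within the libraries of a single header tag the lowest r of any pair was 0.818, in hypothalamus at 60 and 120 min, and the highest was 0.998, in amygdala at 30 min.

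The libraries were spread widest in amygdala. The SD within groups was 0.40 (Cnp) to 0.60 (Mobp) on the log2 scale there, 0.22 to 0.31 in frontal cortex and 0.16 to 0.24 in hypothalamus, against a median over 10243 genes of 0.10, 0.10 and 0.09. In amygdala the 7 genes ranked between the percentiles 96.9 and 99.2 of these genes, and in hypothalamus between 86.9 and 95.2. The ratio of each gene to Mbp varied less than the gene itself, with an SD of 0.062 to 0.132 on the log2 scale. In amygdala control libraries of 30 min, for example, Mbp was at 2288, 969.96, 1793, 999.6 and 2376 CPM and Mog at 64.1, 24.8, 46.5, 26.8 and 62.1 CPM, with the same 2 libraries low for both genes.

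**Figure D4:**
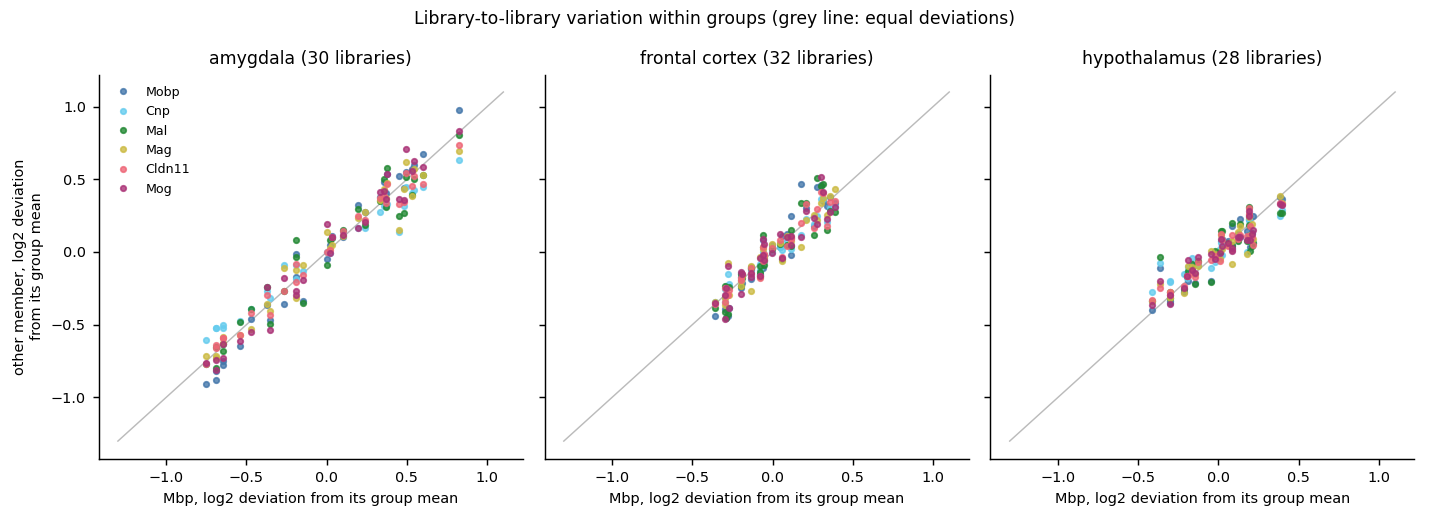
Log2 deviation of the other 6 myelin genes from their group mean (vertical axis) against that of Mbp (horizontal axis) in amygdala (30 libraries), frontal cortex (32) and hypothalamus (28); each colour is a gene and the grey line marks equal deviations. The points follow the line in all 3 regions, and their spread along it is widest in amygdala.

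Across regions of the same animal 3 of 21 relations passed the adjusted threshold by Spearman rho and 0 of 21 by Pearson r. Between amygdala and frontal cortex of the same 30 animals the deviations of the 7 genes had a Pearson r of -0.01 to 0.09 and a Spearman rho of -0.03 to 0.10, with permutation p from 0.65 to 0.94 for r. Between amygdala and hypothalamus (28 animals) r was 0.38 to 0.53 and rho 0.40 to 0.54, with permutation p from 0.004 to 0.049 for r and adjusted p from 0.076 to 0.11 over the 21 relations. For rho the adjusted permutation p was 0.037 for each of Mag, Cnp and Mal and 0.10 or above for the other 4 genes. Between frontal cortex and hypothalamus (28 animals) r was 0.26 to 0.39 and rho 0.24 to 0.38 (permutation p from 0.037 to 0.18 for r, adjusted 0.11 to 0.28). Without the 2 animals farthest from the median, r was 0.29 to 0.46 for amygdala with hypothalamus and 0.10 to 0.40 for frontal cortex with hypothalamus, where it was higher than before for Mog (0.40), Mobp (0.37) and Cnp (0.38).

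Within regions Mbp varied with the means of the lists of mature and newly formed oligodendrocyte markers. Over 48 correlations of Mbp with the mean log2 CPM of 16 lists, the other oligodendrocyte markers had a Pearson r of 0.96 to 0.98 over the 3 regions (Spearman rho 0.96 to 0.97), and the myelin lipid enzymes 0.93 to 0.97 (rho 0.93 to 0.97). The transcription factors had 0.73 to 0.93 and the markers of newly formed oligodendrocytes 0.80 to 0.92. The adjusted permutation p of these 4 lists was at most 0.00015 for r. Bcas1, among the newly formed markers, had r of 0.94 to 0.99 over the 3 regions with the mean deviation of the myelin genes. The single genes of the list were not tested against Mbp. Precursor markers had r from -0.31 to 0.01 (permutation p from 0.099 to 0.95) and cholesterol synthesis from -0.18 to 0.01 (permutation p from 0.34 to 0.97). Left without the 2 libraries farthest from the median of Mbp, the oligodendrocyte list kept r of 0.96 to 0.98.

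In amygdala Mbp also varied with markers of other tissues and cell types. Its r was 0.87 with the 8 striatal markers (rho 0.89, adjusted permutation p = 3.4e-05), 0.81 with 11 neuronal markers (rho 0.82), 0.77 with 6 thalamic markers (rho 0.74) and 0.76 with 9 microglia markers (rho 0.77). It was -0.62 with 8 cortical markers (rho -0.62, adjusted permutation p = 0.00064). Without the 2 farthest libraries the striatal r was 0.88 and the cortical r -0.54. The summed striatal CPM ran from 266 to 2533 over the amygdala libraries. In frontal cortex the striatal r was 0.36 (rho 0.40, adjusted permutation p = 0.076 for r) and in hypothalamus 0.14 (rho 0.03, adjusted permutation p = 0.61). The neuronal r was -0.04 in frontal cortex (rho -0.07) and 0.58 in hypothalamus (rho 0.58, adjusted permutation p = 0.0034), and the microglia r was 0.21 (rho 0.22) and 0.48 (rho 0.42, adjusted permutation p = 0.018 for r). The thalamic r was 0.31 in frontal cortex (rho 0.34) and 0.30 in hypothalamus (rho 0.34), and the cortical r was -0.12 (rho -0.12) and 0.39 (rho 0.24). Astrocyte markers had r of 0.43, 0.46 and 0.35 in amygdala, frontal cortex and hypothalamus (rho 0.40, 0.46 and 0.34).

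**Figure D5:**
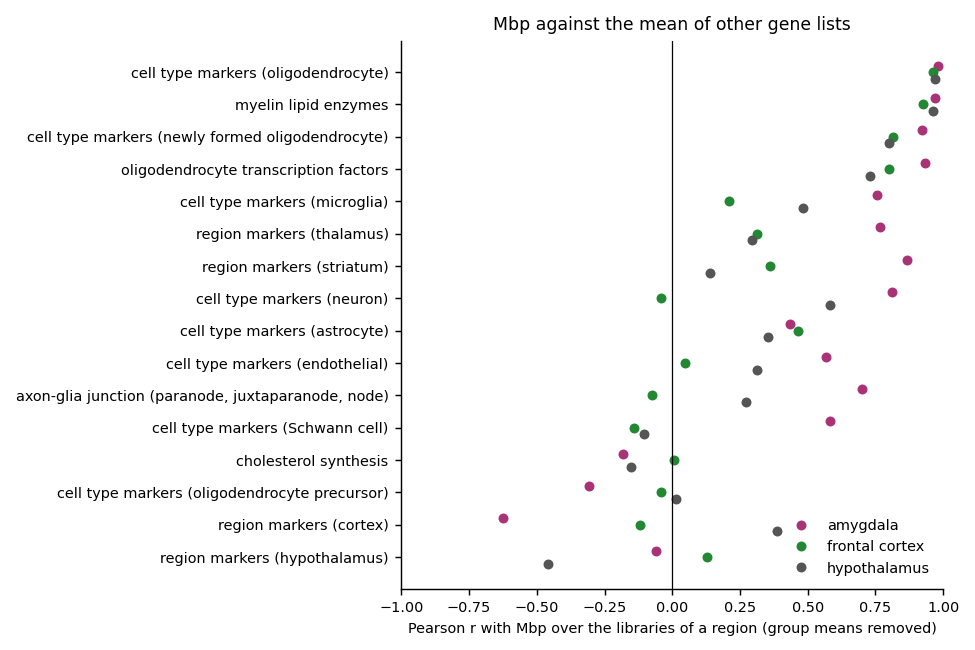
Pearson r (horizontal axis) between Mbp and the mean log2 CPM of each of 16 gene lists over the libraries of a region after subtraction of group means; purple is amygdala (n = 30), green frontal cortex (n = 32) and grey hypothalamus (n = 28). Mature oligodendrocyte markers and myelin lipid enzymes lie between 0.93 and 0.98 in all 3 regions, while the striatal markers lie at 0.87 (amygdala), 0.36 (frontal cortex) and 0.14 (hypothalamus).

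The genes most like the 7 were ranked by their lowest Pearson r, over the 3 regions, with the mean deviation of the 7 genes. Of 16628 genes, 8 had r above 0.9 in all 3 regions, and the median of the lowest r was -0.25. Among the first 10 were Bcas1, a protein of early myelinating cells, with a lowest r of 0.94, Gatm, an enzyme of creatine synthesis (0.93), and Prr18 (0.93). Evi2a (0.91), Efhd1 (0.90), Slc44a1, a choline transporter (0.90), Galnt6 (0.90), Tmem63a (0.89) and Fa2h (0.89) were also among them. This ranking is a description over 30, 32 and 28 libraries that share depth and dissection, with no test.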

How the data were processed

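RNA of 90 libraries was sequenced as single-end reads from stranded poly(A) kits, per the labels' protocols. The deposited table holds raw counts of reads per gene for each library, not normalized, in whole numbers. CASAVA 1.8.2, TopHat2 2.0.8, HTSeq 0.6.1, edgeR 3.2.4 and the build NCBIM37 are named in the submitters' processing notes. All columns matched a library (0 left over). The 5 summary rows that name no gene held 20.6% to 25.3% of a library's total and were left out. Of the 37991 identifiers, 32919 had a symbol.

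Counts were filtered with edgeR's filterByExpr, scaled by TMM and tested with edgeR 4.0.16 (quasi-likelihood test, R 4.3.3) within each region, or over regions for region comparisons, with Benjamini-Hochberg adjustment over all genes and a threshold of 0.05. A prior count of 2 entered the log2 CPM. Correlations over libraries used permutation tests with 100000 resamples. Alternatives were other scalings, no filter, limma 3.58.1 voom, DESeq2 1.42.0, blocks by replicate number, animal or library index, the compared groups alone, and leaving out each library. Libraries of different regions were taken as the same animal where time, condition and replicate number matched. Deviations of such libraries correlated above 0.1 in 15 of 30 animals for amygdala and frontal cortex (median r 0.097). The count was 23 of 28 for amygdala and hypothalamus (median r 0.28) and 16 of 28 for frontal cortex and hypothalamus (median r 0.13). In fits over regions, libraries of the same animal were treated as independent, with the animal as a block in an alternative. No 2 libraries of a group (183 pairs) were identical. The fits were tested on simulated data.

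The myelin genes and the gene lists were chosen with earlier results of these data known. The 7 myelin genes are always named, and of each list at most the 3 genes with the smallest adjusted p in a comparison. Each of the 16 lists was counted without the 7 genes. The test of the change between regions and the alternatives of the comparisons between single times were added after the data were seen. A start region of Mbp was not used here. Some genes are not reported here.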

Additional observations from a re-analysis of the deposited data

Results flagged for a closer look

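In 119 sets tested, each a single myelin gene in a single group of libraries, 9 single values lay farther from the others than Dixon's 95% value allows. The myelin genes vary together within groups, so the sets are not independent and this count cannot be set against a chance rate. The 9 values came from 3 libraries, each the highest of 5. Replicate 6 of the amygdala controls at 60 min had Mbp at 2159.9 CPM (next library 1497.4), Mobp at 803.24 (next 536.45), Cnp at 329.93 (next 249.64) and Cldn11 at 149.77 CPM (next 109.38). Its summed striatal markers, 2533 CPM, and its summed oligodendrocyte markers, 3572 CPM, were also the highest of the group, and their part in these values was not tested. Replicate 3 of the frontal cortex controls at 30 min had Mog at 44.419 CPM (next 35.558), Mag at 115.89 (next 97.159), Mal at 196.15 (next 150.73) and Cldn11 at 118.87 CPM (next 93.311). Its summed striatal markers, 403.08 CPM, and its summed oligodendrocyte markers, 2796 CPM, were also the highest of its group, and their part was not tested. Replicate 4 of the frontal cortex intruder libraries at 60 min had Mbp at 3089.5 CPM (next 2276.5). Its summed oligodendrocyte markers, 3832 CPM, were the highest of its group, and its striatal sum of 591.43 CPM was the middle of its group.

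The change from 30 to 60 min differed between regions by edgeR's quasi-likelihood test, a test added after the values were seen. The adjusted p was 0.018679 for Cnp, 0.02715 for Mal and 0.020086 for Cldn11 in controls, where 22.7% of genes were called. In intruder libraries it was 0.014088 for Mbp, 0.010558 for Mog, 0.01525 for Mag, 0.0030756 for Cnp and 0.021408 for Cldn11, where 37.4% of genes were called. From 30 to 60 min the 7 genes were called higher in frontal cortex in both conditions. There 17.2% of all genes were called higher in controls and 22.3% in intruder libraries. The estimates in hypothalamus controls were also positive (0.18 to 0.38, with 1 of 7 at an unadjusted p below 0.05). The count of genes called between regions fell from 3 to 0 of 7 in controls without the animals numbered 1, 3 or 5, and from 5 to 0 in intruder libraries without those numbered 4.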

How the results depend on the processing

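No myelin gene was called between intruder and control in any of 489 alternatives over 18 results. Of 1067 alternative values, 1031 stayed near the main value and 36 did not, and the cause was not tested. These values are counts of called myelin genes, judged within 1.5 times the main count. The exceptions are the correlations of gene pairs and of the same animal and the level per length. Many of the counts compare 0 with 0, the 489 above among them. Of the values called between times, 17 of 239 lost their call when a library was left out and 3 of 161 under other settings, and of those between regions 2 of 174 and 0 of 203; none changed sign. For frontal cortex controls at 120 against 30 min the count of 2 became 1 without the filter, 4 with DESeq2, 5 with the groups compared alone and 0 to 4 when a library was left out. At 120 against 60 min the count of 0 became 1 with upper-quartile scaling, 1 with DESeq2, 3 with the groups alone and 0 to 3 when a library was left out. For the change from 30 to 60 min between regions the count of 3 in controls became 5 with RLE scaling, 6 with upper-quartile scaling, 6 with DESeq2 and 0 to 6 when an animal number was left out, and the count of 5 in intruder libraries became 0 to 6. For amygdala against frontal cortex in controls the count of 1 became 3 with limma voom, 3 with the animal as a block and 0 to 3 when an animal number was left out. The level per length of the highest over the lowest gene (each at its middle value over the 3 regions, which for both was that of frontal cortex) rose from 8.41 to 14.8 with the longest transcript.

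Whether replicate numbers pair the libraries was not settled. Same-numbered libraries of intruder and control correlated above 0.1 in 16 of 41 pairs (median r 0.04), and those of different times in 42 of 76 (median r 0.16). Values for differently numbered libraries are not given beside them. With the replicate number as a block, the 2 calls of frontal cortex controls at 120 against 30 min became 0. A block by library index could not be fitted for most comparisons between times in frontal cortex. Within a condition, frontal cortex libraries of different times shared no index, and at 120 min its control and intruder libraries shared none.

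Counts over all genes moved more. Intruder against control at 120 min gave 93 genes in amygdala (12 without the filter, 409 with DESeq2, 199 with the replicate block, 0 with the index block, 0 alone) and 34 in hypothalamus (100 with DESeq2, 6 with the replicate block, 0 alone). The intruder effect between times gave 0, 0 and 2 genes in amygdala, frontal cortex and hypothalamus (157, 4 and 25 with DESeq2). Between regions it gave 0 (11 at 30 min and 6 at 120 min with DESeq2). Times within controls gave 40 genes in amygdala (20 without the filter, 196 with DESeq2, 0 with the index block, 4 alone) and 32 in hypothalamus (162 with DESeq2, 9 with the replicate block, 21 alone). Times within intruder libraries gave 2225 in amygdala (1452 with the replicate block, 2 with the index block) and 263 in hypothalamus (607 with DESeq2, 70 with the replicate block, 165 alone). In frontal cortex, 120 against 30 min gave 755 in controls (441 without the filter, 1142 with DESeq2) and 3021 in intruder libraries (1835 alone), and 120 against 60 min gave 3914 in intruder libraries (2382 alone, 0 with the index block). The change from 30 to 120 min between regions gave 277 in controls (159 without the filter, 487 with DESeq2, 624 with the animal block). Counting error was small at 964 or more reads per gene and library; the spread between libraries set the precision.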

Other observations

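Some lists not described above also varied with Mbp within groups. Genes of the axon-glia junction had a Pearson r of 0.70 in amygdala (rho 0.69, adjusted permutation p = 0.0002), -0.08 in frontal cortex (rho -0.07) and 0.27 in hypothalamus (rho 0.40). Endothelial markers had r of 0.57, 0.05 and 0.31 in the 3 regions (rho 0.59, 0.03 and 0.33). Schwann cell markers (Drp2, Pmp22, Egr2 and Ncmap, the 4 of 8 listed with the highest mean CPM) had r of 0.58 in amygdala (rho 0.58, adjusted permutation p = 0.0018), -0.14 in frontal cortex and -0.10 in hypothalamus. Hypothalamic markers had r of -0.46 in hypothalamus (rho -0.49, adjusted permutation p = 0.028, r = -0.44 without the 2 farthest libraries). These relations are descriptions of pieces that share dissection and depth, and no cause was tested.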
